A study of Ciona savignyi with 56 samples.

Results

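A set of 14 genes, of the 12172 in the deposited matrix, had its highest level in the muscle lineages of the 110-cell embryo of the ascidian Ciona savignyi. All 14 also had counts in some cells outside muscle. The genes were chosen from the measured values. Cells of the 110-cell stage were pooled by the class the authors gave them into 10 groups, and counts were expressed as CPM, that is, scaled to the same total in every group. A gene was a member when it reached 30 CPM in muscle and when its CPM plus 5 was at least 2.5 times that of every other group. A run of 42 neighbouring identifiers was set aside by the rule, 1 of which met the other criteria. The muscle group held 24 of the 297 classed cells of the stage, and 4587 genes reached the CPM minimum in it. The files pair no identifier with a gene name, so the members are given by identifier and no role can be attached to them. For the same reason the muscle label could not be checked against known muscle markers.

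Ascidian embryos cleave by a fixed lineage, so each cell of an early embryo has a name and a known fate. The primary muscle of the larval tail comes from posterior vegetal cells of the B line, named B7.4 and B7.8 at the 64-cell stage and B8.7, B8.8, B8.15 and B8.16 after their next division. Their mother cells at the 32-cell stage are B6.2 and B6.4, and the sisters of B7.4 and B7.8 are B7.3 and B7.7. B7.7 gives mesenchyme, and B7.3 divides into B8.5, pooled here with mesenchyme, and B8.6, pooled with notochord. For short, B7.3 and B7.7 are called mesenchyme sisters or mesenchyme position below. B7.5, a posterior cell of the same line, gives the heart precursors and the foremost tail muscle, and its sister B7.6 gives the germ line. In ascidians primary muscle fate is known to rest largely on maternal factors of the posterior egg, while mesenchyme is induced in the sister cells by fibroblast growth factor through the kinase MEK.

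Polyadenylated RNA of single blastomeres was sequenced with a modified Smart-seq2 protocol in 773 cells of 31 embryos. The untreated groups used here were 8 zygotes (1-cell stage) and 5 embryos with 2 cells, 3 with 4 cells, 3 with 8 cells, 2 with 16 cells, 2 with 32 cells, 3 with 64 cells and 3 with 110 cells. A further 2 embryos were taken at the 64-cell stage after culture with U0126, an inhibitor of MEK, at 2 ug/ml. The labels give no genetic change for any group, and blastomeres were picked by glass capillary after the embryos had been dissociated with trypsin.

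The unit of the counts changed between groups. The 2-, 4-, 64- and 110-cell groups held counts of UMIs, the tags that mark copies of 1 molecule, and the other groups, U0126 included, held counts of reads. Changes between stages were therefore tested only within 1 kind of count, and between treated and untreated embryos U0126, the library and the kind of count cannot be told apart, also where contrasts within embryos are compared. The 110-cell embryos held 2886511 to 4303758 UMIs, the 64-cell embryos 2372200 to 2765860 UMIs and the treated embryos 10768923 to 11770147 reads. The embryo was the replicate. How the authors classed the cells is not given in the sources used here, so whether genes of this set helped to class them cannot be told apart from their pattern.

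ENSCSAVG00000005074 was the most abundant member in 110-cell muscle, at 805.6, 969.0 and 925.6 CPM in the 3 embryos. The 3 embryos were close to each other for this gene. ENSCSAVG00000004073 followed at 286.5, 179.4 and 214.3 CPM. ENSCSAVG00000011213 had 148.3, 91.7 and 234.2 CPM and varied more between embryos, as did ENSCSAVG00000006193 at 107.9, 79.8 and 130.3 CPM. ENSCSAVG00000009769 had 101.1, 59.8 and 152.4 CPM. The next member, ENSCSAVG00000006024, had 70.8, 69.8 and 117.1 CPM, so its highest value came from the embryo that was also highest for the 3 genes before it. ENSCSAVG00000006057 went the other way, with 111.2, 113.6 and 42.0 CPM and its lowest value in that embryo. ENSCSAVG00000004121 had 60.7, 99.7 and 66.3 CPM. The remaining 6 members, ENSCSAVG00000008285, ENSCSAVG00000007826, ENSCSAVG00000009932, ENSCSAVG00000001309, ENSCSAVG00000000094 and ENSCSAVG00000008593, lay between 23.9 and 125.9 CPM in single embryos. Together the 14 genes made up 2164, 1916 and 2323.8 CPM of 110-cell muscle (2134.6 ± 205.5, SD, n = 3).

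**Figure D1:**
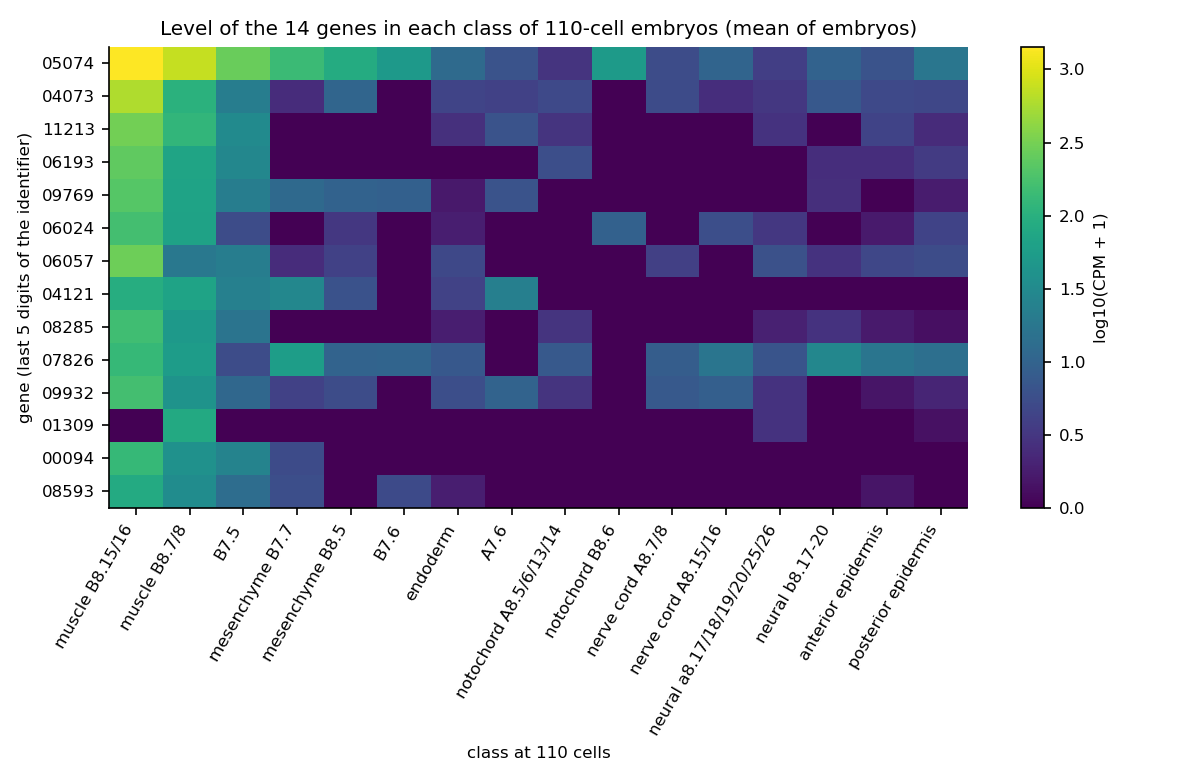
Level of the 14 members in the 16 classes of the 110-cell embryo, as log10 of CPM + 1, each square the mean of the embryos that hold the class; genes are labelled by the last 5 digits of their identifiers. The columns of B8.15/16 and B8.7/8, the muscle classes, are the brightest, B7.5 comes next for most members, and ENSCSAVG00000001309 is at 0 in B8.15/16.

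The choice of the members fixed that muscle was their highest group, so the following values describe the set and were not tested. B7.5 was the second group for 11 of the 14 members. ENSCSAVG00000005074 was pooled at 914.5 CPM in muscle and 262.8 CPM in B7.5, and ENSCSAVG00000004073 at 217.4 CPM in muscle and 33.2 CPM in B7.5. The sharpest contrasts belonged to ENSCSAVG00000001309, at 60.8 CPM in muscle and 1.57 CPM in animal neural cells, the next group, and to ENSCSAVG00000006024, at 87.1 CPM in muscle and 5.1 CPM in the next group. ENSCSAVG00000007826 was the member whose second group was mesenchyme, at 69.5 CPM in muscle and 21.3 CPM in mesenchyme. ENSCSAVG00000004121 was the member whose second group was A7.6, at 78.3 CPM in muscle and 26.9 CPM in A7.6.

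The list stood on few counts for its lower members and depended on single embryos. The number of UMIs behind a pooled muscle value ran from 1144 for ENSCSAVG00000005074 to 51 for ENSCSAVG00000008593. Just inside the threshold were ENSCSAVG00000006193, with a ratio of 2.54 on the scale of CPM plus 5, and ENSCSAVG00000008593 with 2.58. Just outside were ENSCSAVG00000010921, with 2.47 at 70.3 CPM, and ENSCSAVG00000003984, with 2.30 at 36.0 CPM. The same rule gave 7, 15 and 20 genes when embryo 1, 2 or 3 was left out, of which 7, 12 and 10 were among the 14. Muscle was the highest group for 14, 13 and 14 members in embryos 1, 2 and 3, and the exception was ENSCSAVG00000000094 in embryo 2, at 23.9 CPM in muscle and 39.8 CPM in B7.5.

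A measure free of the choice came from genes picked in 2 of the 3 embryos and read in the remaining one. Genes picked without embryo 1 had their highest level in muscle in embryo 1 for 7 of 7, and 7 met the fold of 2.5 there. Genes picked without embryo 2 did so for 11 of 15, and 6 met the fold. Genes picked without embryo 3 did so for 18 of 20, and 8 met the fold. Muscle was the highest group for 2.22%, 2.88% and 2.87% of all genes that reached 30 CPM in the other embryos. In embryos 1, 2 and 3 the fold was met by 0.548%, 0.268% and 0.236% of these genes. The median ratio in the embryo that was left out was 5.52, 1.88 and 1.68, so genes picked in other embryos kept a smaller ratio in embryos 2 and 3 than the rule asks for.

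The members differed in how many muscle cells held them. ENSCSAVG00000005074 and ENSCSAVG00000004073 had a UMI in 24 of 24 muscle cells, ENSCSAVG00000009769 and ENSCSAVG00000008593 in 23, and ENSCSAVG00000011213, ENSCSAVG00000006193 and ENSCSAVG00000007826 in 22. ENSCSAVG00000006024 and ENSCSAVG00000004121 had one in 21 cells, ENSCSAVG00000000094 in 19, ENSCSAVG00000006057 and ENSCSAVG00000008285 in 18, ENSCSAVG00000009932 in 16 and ENSCSAVG00000001309 in 12. The related posterior cells held part of the set too. In mesenchyme ENSCSAVG00000005074 had a UMI in 10 of 10 cells and ENSCSAVG00000009769, ENSCSAVG00000004121 and ENSCSAVG00000007826 in 6 of 10, while the others had one in 0 to 3 cells. In B7.5 ENSCSAVG00000005074 had a UMI in 5 of 5 cells, ENSCSAVG00000004121 and ENSCSAVG00000000094 in 4, and the others in 0 to 3. In the 123 epidermis cells, a type that should lack muscle transcripts, ENSCSAVG00000007826 had a UMI in 34 (27.6%) and ENSCSAVG00000005074 in 26 (21.1%), while the other members had one in 0 to 11 cells. ENSCSAVG00000004121 and ENSCSAVG00000000094 had none there, which allows a share of up to 2.44% of cells with a UMI by a floor of 3 cells, with an exact 95% upper limit of 2.95%. The median depth was 36284.5 UMIs in muscle cells, 84254 in mesenchyme, 51462 in B7.5 and 27819 in epidermis cells. These shares and floors cover counting error only.

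The 14 genes summed to 782 to 5650 CPM in single muscle cells, with a median of 2449 CPM, and a muscle cell held 7 to 14 of them. Single B7.5 cells, 5 in number, had a sum of 31.6 to 734 CPM with a median of 518 CPM, so the highest B7.5 cell lay below the lowest muscle cell. The median was 136 CPM in mesenchyme, 24.9 CPM in epidermis and 0 in notochord. The identifiers that the rule set aside took 20.4% ± 6.16 of the counts of 110-cell muscle and 11.2% of those of B7.5, against 3.73% in mesenchyme and 3.99% in epidermis. They lower the CPM of every other gene in muscle, and without them in the total the rule gave 16 genes.

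Within muscle, both lineages differed in the members they held. ENSCSAVG00000001309 was found in the B8.7/8 class alone, in 12 of 12 cells, and in 0 of 12 cells of B8.15/16. ENSCSAVG00000004073 and ENSCSAVG00000006057 had a higher CPM in B8.15/16 in every embryo. The other tested members had a negative log2 difference, that is a higher level in B8.15/16, and did not pass the test. Both classes entered the rule that chose the members. The levels are therefore a description, and nothing is read from the calls and directions. All embryos gave cells to both classes.

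ENSCSAVG00000001309 had 83.2, 91.6 and 66.3 CPM in B8.7/8 and 0 in each embryo in B8.15/16, so the groups did not overlap. Pooled over embryos it stood at 80.2 CPM against a floor of 9.88 CPM, the level of 3 counts over the B8.15/16 cells, which makes it at least 8.12-fold higher in B8.7/8. A count of 0 of 12 cells allows a share of up to 25% of cells with a UMI by a floor of 3 cells, with an exact 95% upper limit of 26.5%. The edgeR quasi-likelihood test, with the embryo as a block and Benjamini-Hochberg adjustment over 5159 genes, gave it an adjusted p of 0.0127. Without a count in B8.15/16 the gene met the CPM minimum of pooled muscle through B8.7/8 alone, so its test uses the values that chose it and nothing is read from the call. The call was lost under 5 of 8 alternatives, with adjusted p of 0.137, 0.314 and 0.259 without embryo 1, 2 or 3, 0.161 without the embryo block and 0.860 with DESeq2.

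ENSCSAVG00000004073 had 566, 617 and 606 CPM in B8.15/16 and 135, 58.5 and 116 CPM in B8.7/8. The lowest B8.15/16 embryo lay above the highest B8.7/8 embryo, and the log2 difference of B8.7/8 from B8.15/16 was -2.58 (SE 0.47, adjusted p 0.000231). The call was lost without embryo 2 (adjusted p 0.0609) and without the embryo block (0.0719). Values of both classes entered the rule, and the gene passed the filter on low counts with the help of B8.15/16. Its test is thus not free of the choice, and nothing is read from the call. ENSCSAVG00000006057 had 307, 387 and 176 CPM in B8.15/16 and 5.2, 38.2 and 8.29 CPM in B8.7/8. These groups did not overlap either, and the log2 difference was -3.90 (SE 0.61, adjusted p 1.1e-05). This call held in every alternative, with adjusted p of at most 0.00914. The gene had 19 UMIs among the 947327 of B8.7/8, below the CPM minimum, and 90 among the 303603 of B8.15/16. It met the rule through B8.15/16, so its test uses the values that chose it and nothing is read from the call.

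In all, 13 of the 14 members passed the filter on low counts, 1 was called higher and 2 were called lower in B8.7/8, against 0.155% of all tested genes called higher and 0.349% called lower. Of the 13, 12 had an unadjusted p under 0.05, beside 349 of all 5159 tested genes, and 12 had a higher level in B8.15/16. The median log2 difference of the 13 was -1.52, beside 0.01 over all tested genes. The rule used both classes pooled, and a member could meet it through the class where its level is higher. These counts and this median are therefore not free of the choice, and nothing is read from them. ENSCSAVG00000005074 had 997, 1556 and 1720 CPM in B8.15/16 and 702, 807 and 727 CPM in B8.7/8. Its groups did not overlap, and the log2 difference of -0.92 did not pass the test (SE 0.29, adjusted p 0.207). The sum of the members was 3976.5 ± 698.5 CPM in B8.15/16 and 1543.9 ± 180.0 CPM in B8.7/8 (SD, n = 3).

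Depth moved with the lineage. The 12 cells of B8.7/8 held a median of 64649 UMIs and the 12 cells of B8.15/16 a median of 24233.5 UMIs. The pooled muscle level that chose the members therefore rested on 947327 UMIs of B8.7/8 and 303603 of B8.15/16. Whether the depth of the cells had a part in the lower CPM of B8.7/8 was not tested. The identifiers set aside took 20.6% ± 5.29 of the counts in B8.7/8 and 19.2% ± 8.56 in B8.15/16, so their share was near in both classes. ENSCSAVG00000004073 and ENSCSAVG00000005074 had a UMI in 12 of 12 cells of both classes, so their lower level in B8.7/8 was seen in cells that all held the transcript. ENSCSAVG00000006057 had a UMI in 6 of 12 cells of B8.7/8 and 12 of 12 of B8.15/16. In values of whole embryos, fewer cells with a transcript and less RNA in each cell cannot be told apart.

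**Figure D2:**
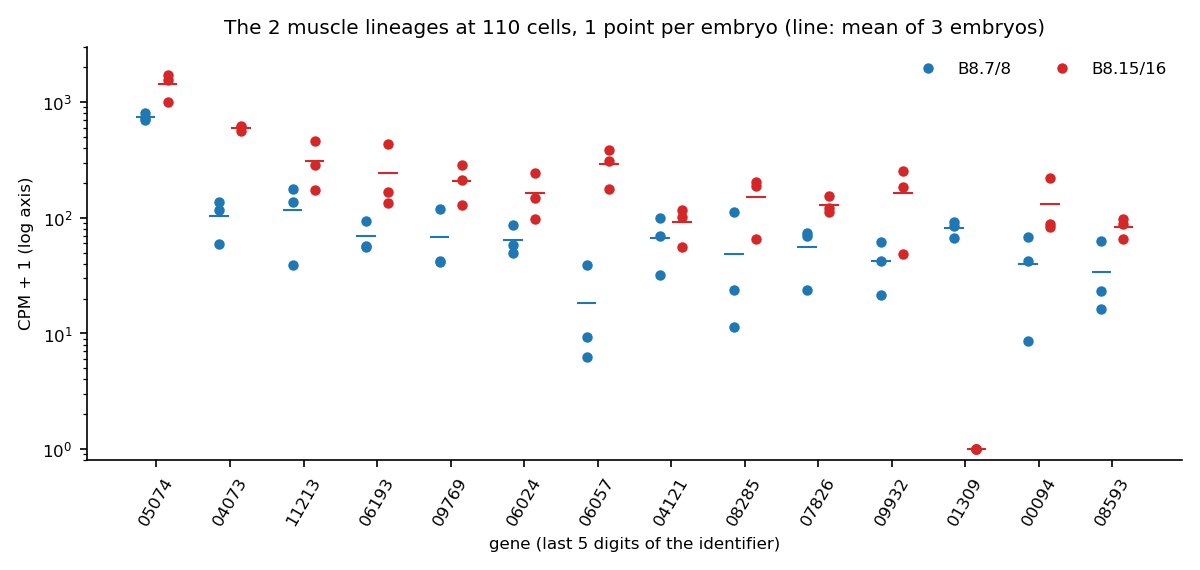
CPM + 1 of each member (log axis) in the B8.7/8 and B8.15/16 classes of the 110-cell embryo, with 1 point for each of 3 embryos and a line at their mean. Points of ENSCSAVG00000001309 lie at 0 CPM in B8.15/16, and those of ENSCSAVG00000004073 and ENSCSAVG00000006057 lie higher in B8.15/16 than in B8.7/8 in every embryo.

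At the 64-cell stage, 1 division earlier and in other embryos, part of the set was already raised in the mother cells of the 110-cell muscle. ENSCSAVG00000005074 and ENSCSAVG00000007826 were higher in B7.4 and B7.8 than in the mean of the other classes. ENSCSAVG00000006057 was called higher than that mean too, but an endoderm class was above B7.4 and B7.8 pooled in every embryo. That call was lost under some alternatives, and nothing is read from it. ENSCSAVG00000001309 was found in B7.4 and ENSCSAVG00000004073 mainly in B7.8. B7.4 is the mother of the B8.7/8 cells and B7.8 that of the B8.15/16 cells. ENSCSAVG00000006024 and ENSCSAVG00000000094 had no UMI in any of the 12 muscle cells of this stage.

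ENSCSAVG00000005074 had 286, 373 and 317 CPM in B7.4 and 486, 497 and 398 CPM in B7.8. Its levels were lower in the mesenchyme sisters, at 122, 161 and 79.7 CPM in B7.3 and 121, 222 and 179 CPM in B7.7, and the groups did not overlap. ENSCSAVG00000007826 had 71.6, 25.8 and 35.6 CPM in B7.4 and 134, 28.1 and 119 CPM in B7.8, with embryo 2 lowest in both. In epidermis of this stage it had a UMI in 20 of 66 cells (30.3%), so low counts of this gene were widespread. ENSCSAVG00000001309 had 31.8, 70.8 and 59.3 CPM in B7.4, where 6 of 6 cells held it, and 0, 9.37 and 0 CPM in B7.8, where 1 of 6 cells did. It had no UMI in either mesenchyme class, which makes pooled muscle at least 10.8-fold higher than mesenchyme. ENSCSAVG00000004073 had 33.5, 56.2 and 106 CPM in B7.8, where 6 of 6 cells held it, and 0, 0 and 5.93 CPM in B7.4, where 1 of 6 did.

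Against all other classes, 4 of the 14 members passed the filter on low counts and 3 were called higher, beside 1.22% of all 5162 genes tested. A gene can pass that filter through the classes where it is high, as ENSCSAVG00000007826 and ENSCSAVG00000006057 did through B7.8. The calls of these genes and the counts of called members at this stage, also against mesenchyme, are thus not free of the filter. Nothing is read from those calls and counts. The log2 difference was 6.26 for ENSCSAVG00000005074 (SE 0.30, edgeR adjusted p 1.6e-31), 3.37 for ENSCSAVG00000007826 (SE 0.52, adjusted p 6.5e-07) and 3.68 for ENSCSAVG00000006057 (SE 0.81, adjusted p 0.0018). The fourth, ENSCSAVG00000009932, was not called (log2 difference 1.47, adjusted p 0.523). Without embryo 3, where 3 members passed the filter, ENSCSAVG00000005074 was the 1 member called. This contrast takes the mean of the log levels of the classes, in which classes without a count weigh much. With the counts of all classes on each side summed, a comparison chosen after seeing the data, 7 members were tested and 4 called, beside 0.851% of all tested genes. These were ENSCSAVG00000005074 (log2 difference 4.28), ENSCSAVG00000001309 (6.02), ENSCSAVG00000009769 (4.11) and ENSCSAVG00000007826 (2.51), with adjusted p of 4.0e-23, 2.9e-08, 1.2e-05 and 5.4e-05. ENSCSAVG00000006057 was not called there (adjusted p 0.0673).

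The difference for ENSCSAVG00000006057 was uneven between embryos and classes. It had 268, 0 and 119 CPM in B7.8 and 15.9, 12.9 and 5.93 CPM in B7.4, and it also had 260, 24.3 and 45.4 CPM in the endoderm class B7.1/2. B7.4 and B7.8 pooled stood at 97.1, 7.63 and 26.6 CPM, so B7.1/2 was above muscle in each of the 3 embryos. The deepest B7.1/2 cell, at 118331 UMIs, held 10 of the 14 members and 124 of their UMIs, 75 of them from this gene, while the other 3 cells of the class held 14 in all. Without embryo 1 or 3 the call of ENSCSAVG00000006057 was lost (adjusted p 0.125 and 0.108), as it was with DESeq2 (0.138). The levels of ENSCSAVG00000005074, ENSCSAVG00000007826 and ENSCSAVG00000001309 in B7.4 and B7.8 together were above those of every other class in each of the 3 embryos. They were 3 of the 12 members with at least 10 counts, beside 0.371% of all such genes.

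**Figure D3:**
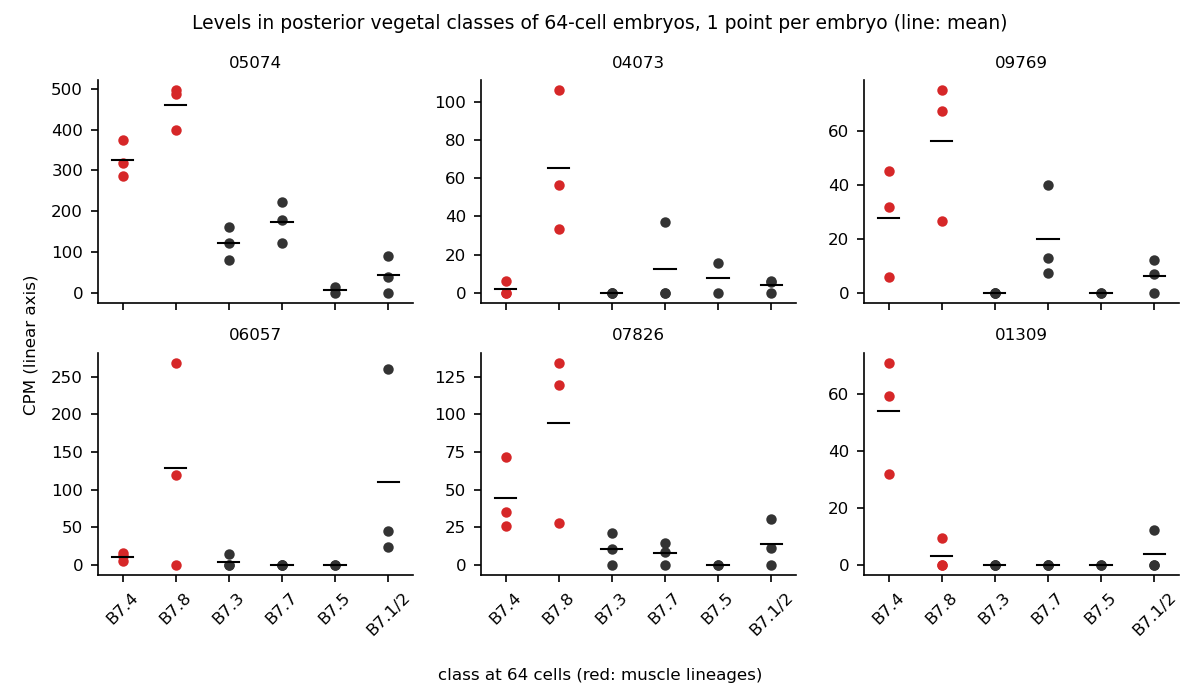
CPM of 6 members in the posterior vegetal classes of the untreated 64-cell embryo, with 1 point per embryo and a line at the mean. B7.4 and B7.8 give muscle, B7.7 mesenchyme, and B7.3 mesenchyme and notochord. B7.5 gives heart precursors and tail muscle, and B7.1/2 endoderm. ENSCSAVG00000005074 is highest in B7.8 and B7.4, ENSCSAVG00000001309 lies in B7.4, and ENSCSAVG00000006057 is as high in B7.1/2 of 1 embryo as in B7.8.

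Against the mesenchyme sisters alone, 4 members were tested and 3 were called higher in muscle, beside 0.852% of all tested genes. ENSCSAVG00000005074 differed by 1.69 on the log2 scale (adjusted p 5.0e-06), ENSCSAVG00000007826 by 2.80 (adjusted p 0.0042) and ENSCSAVG00000006057 by 4.62 (adjusted p 0.0142). Without embryo 1 or embryo 3, and without the embryo block, ENSCSAVG00000005074 was the 1 member called. The sum of the 14 genes was 622 ± 83.0 CPM in muscle and 184 ± 69.3 CPM in mesenchyme at this stage (SD, n = 3).

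Between B7.4 and B7.8 no member was called by edgeR, with 4 tested, 2 of them at an unadjusted p under 0.05, beside 0.329% of all genes called in either direction. With every gene that had a count in the fit, 1 was called, ENSCSAVG00000006057 (log2 difference of B7.4 from B7.8 -3.16, adjusted p 0.0181, beside 0.267% of genes), and the same gene was called without embryo 2 (-4.05, adjusted p 0.0212). In that fit ENSCSAVG00000001309 had a log2 difference of 3.79 (adjusted p 0.707) and ENSCSAVG00000004073 of -4.28 (adjusted p 0.226). The side on which these genes stood at 64 cells is therefore a description of 6 cells against 6. As at 110 cells, the lineages differed in depth, with a median of 78332.5 UMIs in B7.4 cells and 37669.5 in B7.8 cells.

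B7.5 was low for the set at 64 cells, where the embryos that held the class had member sums of 30.2 and 31.2 CPM. ENSCSAVG00000005074 had 15.1 and 0 CPM there and was called lower than in muscle, by -5.83 on the log2 scale (SE 0.83, adjusted p 1.5e-06). It was 1 of 4 tested members, beside 0.291% of all tested genes called lower. Against the other non-muscle classes no member was called in B7.5, with 4 tested and 0 at an unadjusted p under 0.05, beside 0.562% of all genes in either direction. For ENSCSAVG00000006057 and ENSCSAVG00000007826 that contrast could not be determined, because classes on both sides held no count. At 110 cells the member sums of B7.5 were 209, 518 and 722 CPM, and ENSCSAVG00000005074 had a UMI in 5 of 5 cells. ENSCSAVG00000001309 had none in B7.5, which makes pooled 110-cell muscle at least 7.94-fold higher. The rise in B7.5 between the stages was not tested.

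At the 32-cell stage few members had reads enough for a test. ENSCSAVG00000005074 had 28.1 and 33.0 CPM in B6.2 and 0 in B6.4 of both embryos, with 40.3 and 7.27 CPM in B6.1 and 21.3 and 0 CPM in A6.1/3. B6.2 was thus high in both embryos, and B6.1 was above it in 1 embryo and below it in the other. ENSCSAVG00000009769 had 1.61 and 14.2 CPM in B6.4 from 11 reads and no read in another class. No member was called higher in B6.2 and B6.4 by edgeR, with 3 tested and 1 at an unadjusted p under 0.05, beside 0.416% of all tested genes. For ENSCSAVG00000005074 that contrast could not be determined, because classes on both sides held no read, and with the classes summed its log2 difference was 3.08 (SE 0.91, adjusted p 0.0684).

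Before the 32-cell stage there was little to test. Through the 16-cell stage ENSCSAVG00000001309, ENSCSAVG00000004121, ENSCSAVG00000008285 and ENSCSAVG00000008593 had no count in any cell. ENSCSAVG00000006193 had 22 reads in 4 of 8 embryos at the 1-cell stage and 70 reads at the 8-cell stage, and ENSCSAVG00000007826 had 18 reads in 7 of 8 embryos at the 1-cell stage. ENSCSAVG00000004073 had 30 reads in 8-cell and 34 in 16-cell embryos. ENSCSAVG00000006193 was the member that passed the filter in the contrasts of posterior with other cells at 16 and 8 cells. It was not called by edgeR, with log2 differences of -3.32 (adjusted p 0.860) and -0.90 (adjusted p 0.763), beside 0.464% and 0.817% of all genes called higher. At 4 cells 0 members were tested, beside 0.382% of genes called.

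ENSCSAVG00000005074 was called as rising in whole embryos during cleavage. It had 0 reads in 3 embryos at the 8-cell stage and 8.3 and 5.4 CPM with 32 cells, a level at least 16.5-fold higher than the floor of 0.415 CPM. Its rise was called from 8 to 32 cells (edgeR adjusted p 6.4e-05) and from 16 to 32 cells (log2 change 5.2, SE 0.81, adjusted p 0.00043). It was 1 of 3 tested members in both, beside 1.2% and 0.637% of all tested genes called higher. From 4 to 64 cells it went from 0, 5.6 and 3.0 CPM to 46.6, 71.2 and 67.4 CPM (log2 change 4.44, SE 0.64, adjusted p 3.5e-05), beside 5.12% of all genes called higher. All 4-cell embryos came from 1 library that held no 64-cell embryo. Embryos with 8, 16, 32, 64 and 110 cells came from libraries of their own stage alone. In every step between stages, stage and library therefore cannot be told apart. With every gene that had a count in the fit, ENSCSAVG00000006057 (log2 change 4.24, adjusted p 0.0117) and ENSCSAVG00000009932 (4.36, adjusted p 0.0086) were called too, beside 3.61% of genes called higher.

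**Figure D4:**
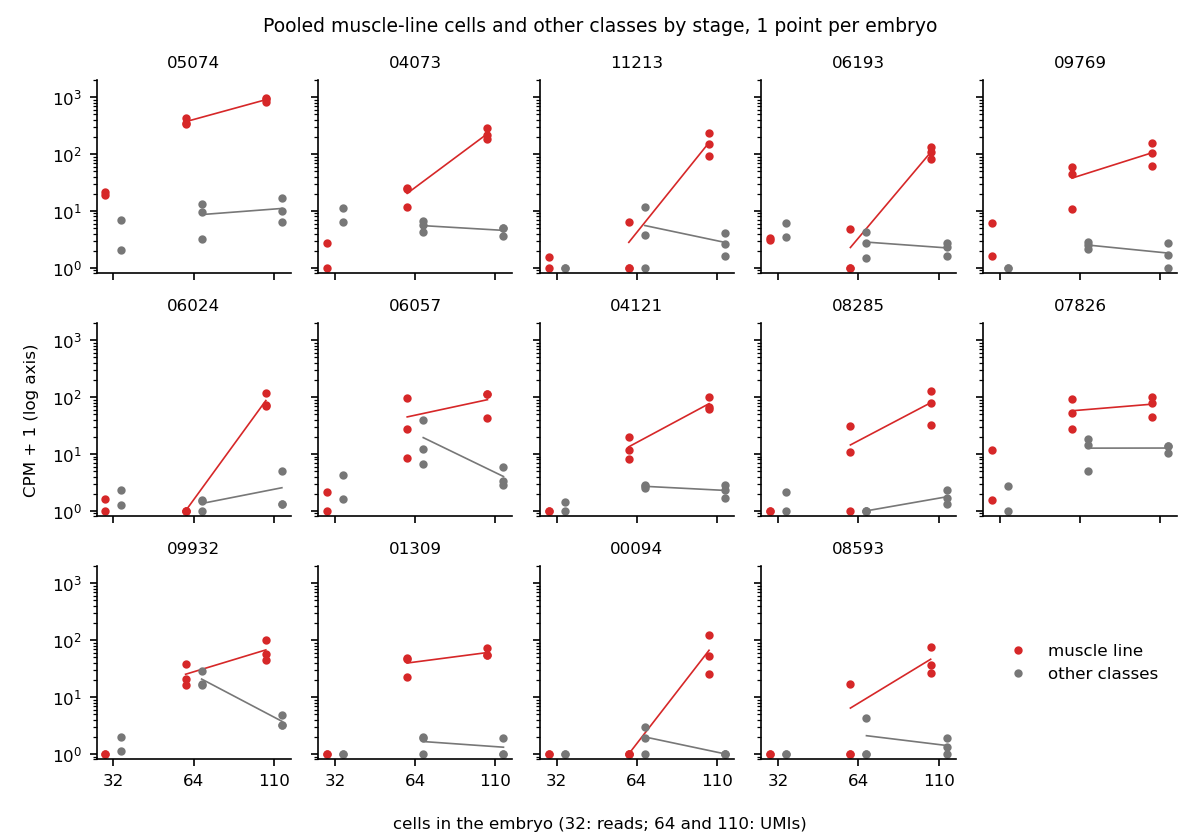
CPM of each member in the muscle line (red) and in the other classes pooled (grey) at 32 cells (reads), 64 cells and 110 cells (UMIs), with 1 point per embryo and lines that join the means of the UMI stages. At 32 cells the muscle line is B6.2 and B6.4; at 64 and 110 cells mesenchyme, B7.5 and low-quality cells are left out of the other classes.

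From 64 to 110 cells the members were seen at the stage that chose them, so the levels at 110 cells are high by choice and the change is a description. In the pooled muscle line ENSCSAVG00000005074 went from 351, 424 and 332 CPM to 805.6, 969.0 and 925.6 CPM. ENSCSAVG00000006024 went from no UMI to 87.1 CPM, at least 25.0-fold against the floor of 3.49 CPM, and ENSCSAVG00000000094 from no UMI to 56.8 CPM, at least 16.3-fold. At this depth both genes were thus counted in the muscle line of 110-cell embryos and not in that of untreated 64-cell embryos. When they first appeared was not tested. In the treated 64-cell embryos the class that joins B7.4, B7.5 and B7.8 held ENSCSAVG00000006024 at 85.5 and 6.50 CPM of reads. ENSCSAVG00000000094 had 1.70 and 0 CPM there. In whole embryos the members summed to 164.5, 134.4 and 139.1 CPM at 64 cells and to 292.7, 275.4 and 315.3 CPM at 110 cells. Over whole embryos 0 of 3 tested members were called by edgeR, with 3 at an unadjusted p under 0.05, beside 0.0155% of all genes called higher. DESeq2 called 1, beside 0.155% of genes, edgeR called 3 with every gene that had a count, beside 0.163%, and 1 without 64-cell embryo 3. These fits use the 110-cell values that chose the members, so nothing is read from them.

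In the embryos treated with U0126 members were high in the muscle class, which the authors join with B7.5 as B7.4/5/8, and also in B7.3/7, the position of mesenchyme. ENSCSAVG00000005074 had 601 and 235 CPM in B7.4/5/8 and 492 and 251 CPM in B7.3/7. It had 698 and 496 CPM in the endoderm position B7.1/2 and at most 22.3 CPM in a class elsewhere. In each treated embryo the gene was thus higher in B7.1/2 than in B7.4/5/8 and B7.3/7, a difference that was not tested.

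ENSCSAVG00000004073 had 44.2 and 23.5 CPM in B7.4/5/8 and 31.7 and 23.6 CPM in B7.3/7. ENSCSAVG00000009769 had 48.1 and 40.6 CPM in B7.4/5/8 and 64.5 and 38.2 CPM in B7.3/7. ENSCSAVG00000007826 had 53.2 and 25.2 CPM in B7.4/5/8 and 33.7 and 23.6 CPM in B7.3/7. For the first and second of these genes the order of the positions differed between the embryos, and the third was higher in B7.4/5/8 in both. ENSCSAVG00000006024, which had 2 UMIs in all untreated 64-cell cells together, had 85.5 and 6.50 CPM in B7.4/5/8 and 51.6 and 6.75 CPM in B7.3/7, with embryo 1 higher in both. It had reads in 6 of 9 and 4 of 8 cells of these classes. ENSCSAVG00000001309, found in B7.4 of untreated embryos, had no read in B7.4/5/8 or B7.3/7, where 3 reads would be 1.00 and 1.58 CPM, and 4 reads in all treated cells.

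Against the mean of all other classes, 6 members were tested in treated B7.4/5/8 and 5 were called higher, beside 1.11% of all 7458 tested genes. Outside B7.4/5/8 and B7.3/7, ENSCSAVG00000009769 and ENSCSAVG00000006024 had at most 2.60 and 5.52 CPM in a class. ENSCSAVG00000004073 and ENSCSAVG00000007826 had at most 10.5 and 12.2 CPM in a class there. All of these genes passed the filter on low counts through B7.4/5/8 and B7.3/7. Their calls and the counts of called members, here and in B7.3/7 below, are thus not free of the filter. Nothing is read from those calls and counts. The log2 differences were 6.66 for ENSCSAVG00000005074, 7.28 for ENSCSAVG00000009769, 6.06 for ENSCSAVG00000006024, 4.45 for ENSCSAVG00000004073 and 5.51 for ENSCSAVG00000007826, with edgeR adjusted p of 2.0e-11 to 0.0030. ENSCSAVG00000006057 was not called (log2 difference 2.01, adjusted p 0.805), and DESeq2 called 2, ENSCSAVG00000005074 and ENSCSAVG00000004073, beside 0.872% of genes.

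In B7.3/7 against the same classes without muscle, a comparison chosen after seeing the data, 5 of 6 tested members were called higher, beside 0.483% of all tested genes. The comparison shares its reference classes with the one before, so the values stand side by side and their agreement is no separate result. The log2 differences were 6.85 for ENSCSAVG00000005074 (adjusted p 6.5e-10), 8.02 for ENSCSAVG00000009769 (4.7e-05), 5.84 for ENSCSAVG00000006024 (0.0049), 4.07 for ENSCSAVG00000004073 (0.029) and 5.13 for ENSCSAVG00000007826 (0.044). DESeq2 called ENSCSAVG00000005074 and ENSCSAVG00000004073, beside 0.322% of genes. With the classes summed 3 were called, beside 0.241% of genes, ENSCSAVG00000004073 (adjusted p 0.0748) and ENSCSAVG00000007826 (adjusted p 0.134) being lost. The call of ENSCSAVG00000007826 was also lost without the embryo block (adjusted p 0.0568). Directly between B7.3/7 and B7.4/5/8 no member was called by edgeR, with 6 tested and 0 at an unadjusted p under 0.05, beside 0.389% of all genes in either direction. The log2 differences of B7.3/7 from B7.4/5/8 ran from -0.41 to -2.0 after TMM scaling. The smallest was that of ENSCSAVG00000009769, whose CPM was higher in B7.3/7 in embryo 1, so its direction differs between CPM and the scaled fit. With 2 embryos a p above the threshold does not show equal levels. In both treated embryos B7.4/5/8 and B7.3/7 lay above every other class for ENSCSAVG00000004073, ENSCSAVG00000009769, ENSCSAVG00000006024 and ENSCSAVG00000007826, 4 of the 12 members with at least 10 counts, beside 0.258% of all such genes.

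**Figure D5:**
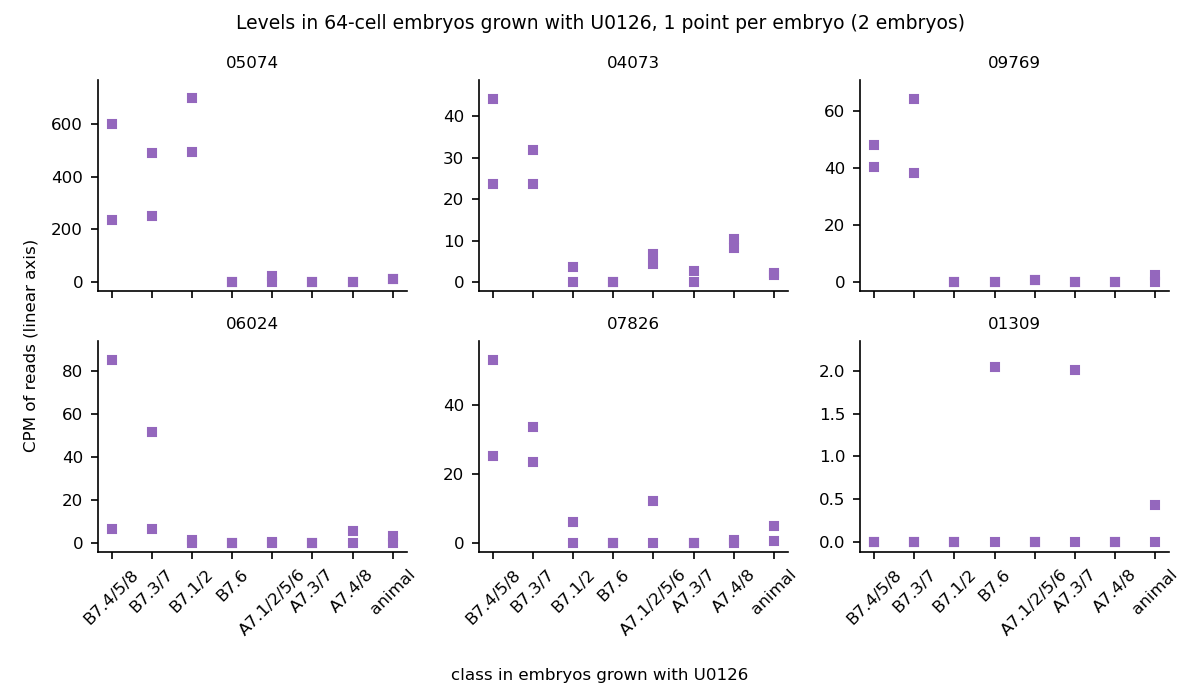
CPM of 6 members in the 8 classes of the 2 U0126-treated 64-cell embryos, with 1 point per embryo. ENSCSAVG00000005074 is high in B7.4/5/8, B7.3/7 and B7.1/2, and ENSCSAVG00000004073, ENSCSAVG00000009769, ENSCSAVG00000006024 and ENSCSAVG00000007826 in B7.4/5/8 and B7.3/7, while ENSCSAVG00000001309 is near 0 throughout.

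In treated B7.1/2, ENSCSAVG00000005074 was called higher than in the classes without muscle and mesenchyme positions (log2 difference 8.99, adjusted p 7.2e-12), 1 of 6 tested members, beside 0.402% of all tested genes. That comparison too was chosen after seeing the data. In untreated embryos the gene had 37.7, 91.1 and 0 CPM in B7.1/2.

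Whether these class contrasts differ between treated and untreated embryos was tested by interaction, with untreated classes joined as in the treated embryos. All treated embryos hold reads and all untreated ones UMIs, from separate libraries, so in these tests treatment, library and kind of count cannot be told apart. No member was called by edgeR for the muscle contrast, the mesenchyme against muscle contrast or the B7.1/2 contrast, with 8 tested in each and 0, 0 and 1 at an unadjusted p under 0.05. Of all tested genes 0.0587%, 0.0294% and 0.294% were called. For 6, 2 and 6 of the 8 members the contrast could not be determined, because classes on both sides held no count, so these tests say nothing of them. Without treated embryo 1, ENSCSAVG00000006057 was called lower in the B7.1/2 contrast (log2 difference -5.80, adjusted p 0.0265). For ENSCSAVG00000005074 the difference in the mesenchyme against muscle contrast was 0.60 on the log2 scale (adjusted p 1.00). With the classes on each side summed, the muscle contrast of ENSCSAVG00000005074 was smaller in the treated embryos by a log2 difference of -1.59 (SE 0.27, adjusted p 0.000255), beside 0.178% of all tested genes called lower. In the same fit ENSCSAVG00000001309 had a log2 difference of -8.36 (adjusted p 0.675) and ENSCSAVG00000006024 of 6.88 (adjusted p 0.769), and the B7.1/2 contrast of ENSCSAVG00000005074 was 2.58 (adjusted p 0.317).

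The identifiers set aside by the rule took 17.9% ± 5.21 of the counts of untreated 64-cell muscle, against 44.2% ± 1.02 of those of treated B7.4/5/8 and 12.6% ± 3.52 of treated B7.3/7. They lower the CPM of the members in the treated muscle position, and with those identifiers left out of the fits no member changed its call in treated embryos.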

How the data were processed

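The authors deposited a matrix of whole-number counts (12172 genes, 773 cells) with a cell table of library, embryo, stage and class. Matrix totals equalled the table's UMI number in 518 cells and its read number in 255, so the deposited counts are UMIs or reads by group. CASAVA 1.8, Seurat and DESeq2 are named in the submitters' processing notes. For the aligner, genome build, annotation and class assignment nothing is given in the sources used, and 0 identifiers could be matched to marker names.

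Counts were summed per embryo, or per embryo and class, without low-quality cells in classes. GEO lists 56 entries for 41 libraries, with 15 repeats counted once, and no library and barcode pair was used by more than 1 cell. Tests used edgeR 4.0.16 in R 4.3.3 (TMM, filterByExpr, quasi-likelihood, embryo block between classes, Benjamini-Hochberg over all tested genes, threshold 0.05), tested on simulated data. A class contrast compares the mean coefficients of the classes on each side, so it could not be determined where a class on each side held no count. Alternatives used DESeq2 1.42.0, RLE scaling, every gene with a count, no block, no set-aside identifiers, summed classes and each embryo left out. Levels were computed in Python 3.11.15 (pandas 2.3.3, numpy 2.4.6, scipy 1.17.1) and plotted by matplotlib 3.10.9. Embryos of 1 group are not said to come from separate parents, so p-values measure the spread between these embryos. Intervals and floors (3 counts) cover counting error only.

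The members and comparisons were chosen with earlier results of these data known. The 8 most abundant members were described in full, with, for each test, up to 4 called members in each direction, and the others were summarised.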

Additional observations from a re-analysis of the deposited data

Results flagged for a closer look

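Of 11 sets of values (1 member, or the member sum, over the 1-cell or the 2-cell embryos) that were examined, 5 held an embryo far from the others, each on 1 to 6 counts. Chance gives about 1 in 20 for continuous values, a rate that cannot be set beside these sets, where a single count can stand apart from embryos at 0 and the member sum repeats an embryo. ENSCSAVG00000006024 had 3.35 CPM (1 read) in 1 of the 1-cell embryos. ENSCSAVG00000009769 had 3.56 CPM (1 read) in another 1-cell embryo. ENSCSAVG00000007826 had 20.1 CPM (6 reads) in 1 of the 1-cell embryos. ENSCSAVG00000006193 had 32.7 CPM (3 UMIs) in 1 of the 2-cell embryos, and the sum of the 14 members in that embryo was 43.6 CPM (4 UMIs).

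Among the 20 low-quality cells of the 110-cell stage, which entered no class, 1 had a member sum of 962 CPM, above the lowest muscle cell at 782 CPM, while the median of these cells was 0. Its class is not given.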

How the results depend on the processing

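Of 184 values of called members under an alternative that tested them, 158 kept direction and call, 26 kept direction and lost the call, and 0 reversed. The cause of a lost call was not tested. Where alternatives moved the number of called members by over 1.5 times, the values are given here. Without a 64-cell embryo, muscle against the other classes gave 1 to 4 in place of 3, and muscle against mesenchyme 1 to 3 in place of 3. Without the embryo block, muscle against mesenchyme gave 1 in place of 3 and the 110-cell lineages 1 in place of 3, and the lineages gave 1 to 3 without an embryo. The 64-cell lineages gave 1 with every gene that had a count and 0 to 1 without an embryo, in place of 0. In treated embryos DESeq2 gave 2 in place of 5 for muscle and 2 for mesenchyme positions, where summed classes gave 3. Summed classes gave 1 in place of 0 for the muscle interaction, and the B7.1/2 interaction gave 0 to 1 without an embryo, where a lone treated embryo is assumed to vary like the untreated. From 4 to 64 cells every gene with a count gave 3 in place of 1. From 64 to 110 cells that setting gave 3, DESeq2 gave 1 and leaving out an embryo 0 to 1, in place of 0. The list held 7 genes with a fold of 3, 7 to 20 without an embryo and 30 in embryo 1 alone, in place of 14. Over all genes, the 110-cell lineages gave 4 higher and 3 lower without the block, in place of 8 and 18. No paired analysis was possible because no embryo occurs in more than 1 group, so the steps between stages have no block. Leaving out an embryo was not run for fits within groups of 2 embryos, which leaves no residual degrees of freedom. Of the 14 members, 13 passed the filter on low counts in the lineages at 110 cells and 0 to 8 in the other fits, and the rest were not tested there. Whether depth had a part in this was not tested.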
